A study of Mus musculus with 17 samples.

Results

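The miR-200 family was followed through libraries of fecal exosomes, small vesicles recovered from feces, at a start-point and an end-point. The family was taken as both arms of miR-200a, miR-200b, miR-200c, miR-141 and miR-429, which names 10 mature miRNAs. Of these, 8 were among the 1487 small RNAs (smRNAs) counted, and miR-200c-3p and miR-141-5p were not analysed here. All 17 libraries came from feces of IL-10 KO mice, which lack the anti-inflammatory cytokine interleukin 10 and develop bowel inflammation, on the C57BL/6J background. They were bought at 4 weeks of age and housed singly. The 10 start-point libraries came from 10 mice, 7 male and 3 female. The 7 end-point libraries came from 6 of the same mice, 5 libraries from males and 2 from females, and end-point libraries 1 and 2 both carry the label of mouse 1. No other value here checks that label, and the counts within mice and the fits with mouse as a block rest on it. Both time points share the gene deletion, no wild-type library was analysed here, and the age at each time point is not given in the sources used here. A change between time points is therefore also a change with age.

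MicroRNAs are cut from hairpin precursors whose 5′ and 3′ sides each give a mature arm, named 5p and 3p. One arm is usually the more abundant guide, and bases 2 to 8 of an arm, the seed, do most of the target recognition. The miR-200 family is known as a marker of epithelium, where its 3p arms repress ZEB1 and ZEB2, transcription factors that switch epithelial cells to a mesenchymal state. The gut lining, which sheds cells and vesicles into the lumen, is rich in these miRNAs. In feces, more vesicles from a cell type and more of a miRNA per vesicle cannot be told apart.

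The 3p arms fall into a pair of seed groups, which differ at 1 base of the seed, and their sequences are shown to make that split visible. Sequences are those of RefSeq on GRCm38.p6, where all 10 arms matched by name, and capitals mark the seed.
mmu-miR-200b-3p: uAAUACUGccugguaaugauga
mmu-miR-429-3p: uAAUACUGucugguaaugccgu
mmu-miR-200c-3p: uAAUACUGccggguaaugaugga
mmu-miR-200a-3p: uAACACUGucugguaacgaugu
mmu-miR-141-3p: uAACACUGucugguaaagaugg
The 5p arms, which the results below turn on, share less with each other.
mmu-miR-200a-5p: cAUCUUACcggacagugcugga
mmu-miR-200b-5p: cAUCUUACugggcagcauugga
mmu-miR-429-5p: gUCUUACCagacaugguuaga
mmu-miR-200c-5p: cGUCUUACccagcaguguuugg
Among all mature mouse miRNAs of that table, the seed AAUACUG belonged to 3 arms, AACACUG to 2 and AUCUUAC to 2, all of them in this family. Several members differ by few bases, counted from position 1 at the 5′ end with the base of the first-named arm first. Between miR-141-3p and miR-200a-3p the differences were A17C and G22U. Between miR-200b-3p and miR-200c-3p they were U11G and A22G, with 1 more base at the 3′ end of miR-200c-3p. How reads matching several members were assigned is not given in the sources used here, so the values of these close pairs carry that uncertainty. The same-seed arms miR-200a-5p and miR-200b-5p differed at 5 positions.

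The hairpins lie in 2 genomic clusters, both on the minus strand of GRCm38.p6. On chromosome 4, Mir429 (156053905 to 156053987), Mir200a (156054896 to 156054985) and Mir200b (156055681 to 156055750) sit within 1846 bases, in an intron of the protein-coding gene Ttll10, and Mir429 also overlaps an exon of the noncoding transcript Gm13648. On chromosome 6, Mir141 (124717914 to 124717985) and Mir200c (124718322 to 124718390) sit within 477 bases, between the protein-coding genes Phb2 and Ptpn6 and in an intron of the antisense gene Gm15884. The hairpins of the 2 genes whose arm balance moved are shown with their 5p arm first and 3p arm second, both in capitals.
Mir200a: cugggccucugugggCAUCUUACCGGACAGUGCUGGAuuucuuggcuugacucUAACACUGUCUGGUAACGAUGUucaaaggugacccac
Mir429: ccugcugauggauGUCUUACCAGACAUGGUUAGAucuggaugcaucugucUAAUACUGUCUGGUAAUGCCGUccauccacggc

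Total counts ran from 87527 to 178075 per start-point library and from 32320 to 161862 per end-point library. The 3 libraries under 75000 counts were end-point libraries 1, 3 and 7, and as no start-point library was so shallow, depth cannot be told apart from time point in them. A count of 0 there allows up to 54.8, 92.8 and 47.0 CPM, the count scaled to a fixed library total, and 16.8 to 34.3 CPM in the other libraries. Start-point libraries 1, 6 and 7 stood somewhat apart, with Spearman rho of log2 CPM from 0.868 to 0.904 in their 3 pairs, from 0.50 to 0.736 in pairs with the other start-point libraries and from 0.63 to 0.864 in pairs among those others. miR-192-5p and miR-194-5p, which mark intestinal epithelium, were counted in all 17 libraries. Fold changes come from edgeR's quasi-likelihood test with TMM factors, which put the median log2 fold change of all smRNAs at -0.18, against -0.65 with library totals only.

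Between the time points, the 5p arms of miR-200a and miR-429 rose, while the 3p arms of those hairpins did not pass the test. The 3p arms of miR-200b and miR-141 were called higher too, although the median CPM of miR-200b-3p was lower at the end-point. Of the 8 arms, 4 were called higher at the end-point at an edgeR adjusted p under 0.05 and none lower. Over all 1270 smRNAs tested, 33.7% were called, 17.4% higher and 16.3% lower. With library totals only, the calls over all smRNAs split into 153 higher and 327 lower in place of 221 and 207. The family's calls then were 3 higher and 1 lower. With TMM factors the family's median log2 fold change over the 8 arms was 1.89, against -0.18 for all smRNAs. This was not a rise of the whole family. By median CPM, both miR-200b arms, miR-200a-3p, miR-429-3p and miR-200c-5p were lower at the end-point, and miR-200a-5p, miR-429-5p and miR-141-3p higher. TMM factors ran from 0.762 to 1.91 at the start-point and from 0.383 to 1.52 at the end-point. The 4 calls were not equally firm, and with mouse as a block or with limma-voom 1 of the 4 passed, miR-200a-5p.

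**Figure D1:**
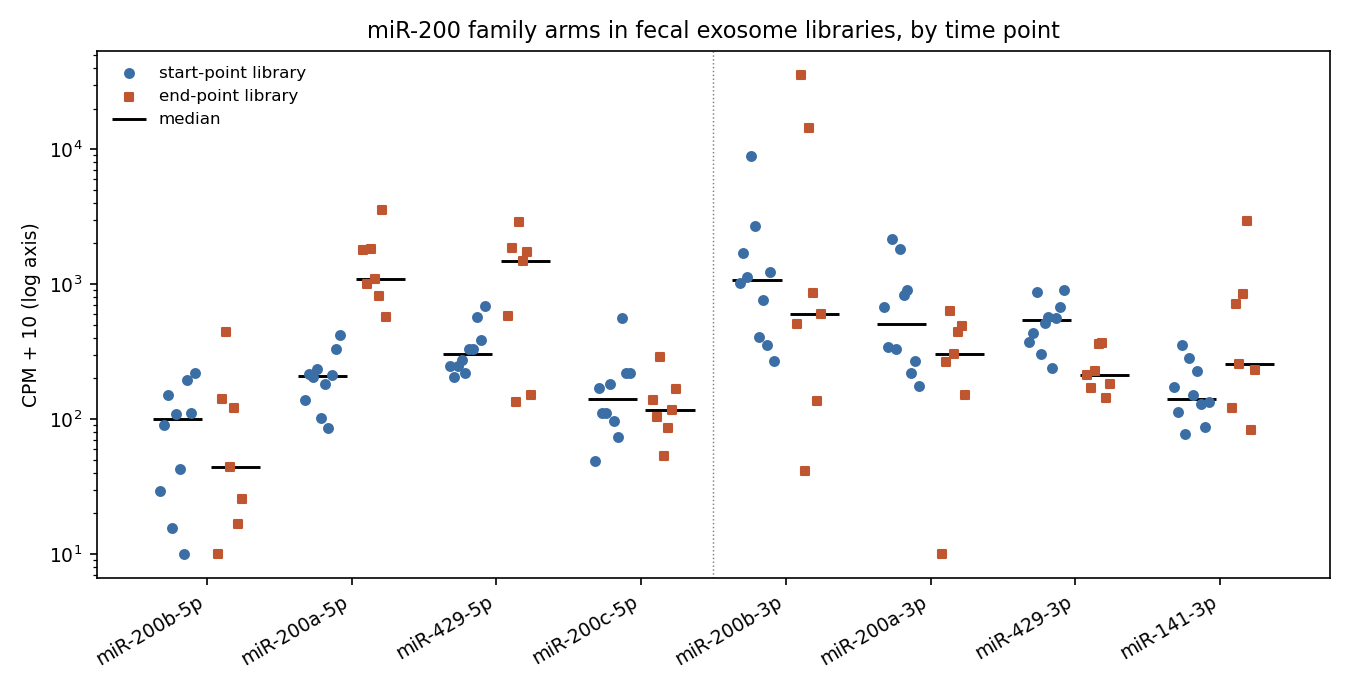
CPM plus 10 on a log axis for each of the 8 arms, with 5p arms on the left and 3p arms on the right. Each point is a library and each line the median of its time point. All 7 end-point libraries lie above all 10 start-point libraries for miR-200a-5p, while miR-200b-3p at the end-point spreads from 30.9 to 35672 CPM.

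miR-200a-5p, the arm of its hairpin usually taken as the passenger strand, rose most. It ran from 75.8 to 411 CPM with a median of 198 at the start-point, and from 564 to 3535 CPM with a median of 1087 at the end-point. Every end-point library exceeded every start-point library, the lowest being end-point library 7 and the highest end-point library 6. Of all smRNAs tested, 0.472% (6 of 1270) lay higher at the end-point without overlap. Means were 203 ± 101.7 CPM (SD, n = 10) and 1515 ± 1009 CPM (SD, n = 7), and the log2 fold change was 3.55 ± 0.42 (SE; edgeR adjusted p 1.54e-06). It was 2.91 with library totals only, 4.14 without the libraries under 75000 counts and 3.52 with mouse as a block, where the edgeR adjusted p was 0.0128. The counts behind it were 13 to 57 per start-point library and 36 to 534 per end-point library.

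All 6 mice with both time points had more miR-200a-5p at the end. As the time points did not overlap, any pairing of libraries would give this, and it adds no separate support. The rise was smallest in female mouse 11, from 323 to 564 CPM, whose end-point library is one of the shallow ones. In female mouse 9 it went from 200.1 to 3535 CPM. The 4 males went from between 75.8 and 196 CPM to between 810 and 1825 CPM, with the pair of end-point libraries of mouse 1 averaged.

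miR-429-5p rose as well, in the deeper libraries. Start-point libraries held 194 to 678 CPM with a median of 292, and end-point libraries 124 to 2892 CPM with a median of 1486. End-point libraries 2, 4, 5 and 6 held 1841, 2892, 1486 and 1721 CPM, above every start-point library. The shallow end-point libraries 1, 3 and 7 held 566, 124 and 140.9 CPM, on 31, 4 and 9 counts, and 2 of these lay below every start-point library. The part of depth in this split was not tested. The log2 fold change was 2.91 ± 0.59 (SE; edgeR adjusted p 0.000819). Mouse as a block gave 1.98 (edgeR adjusted p 0.206), and limma-voom 1.74 with an adjusted p of 0.0659, so the call did not hold there. Within mice it was higher in 4 of 6.

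The remaining 5p arms did not pass the test. miR-200b-5p, which shares its seed with miR-200a-5p, was scarce at 0 to 209 CPM at the start-point and 0 to 433 CPM at the end-point. It had 3 counts or fewer in 4 start-point and 3 end-point libraries, so its change was poorly measured, and its log2 fold change was 0.92 ± 0.76 (SE; edgeR adjusted p 0.362). Its median went the other way, from 89.1 to 34.2 CPM, and of 6 mice 3 had more and 3 had less at the end. miR-200c-5p, from the chromosome 6 cluster, ran from 38.7 to 552 CPM and from 42.8 to 278 CPM. Its log2 fold change was 0.11 ± 0.39 (SE; edgeR adjusted p 0.851), and its direction turned with library totals only, to -0.44.

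**Figure D2:**
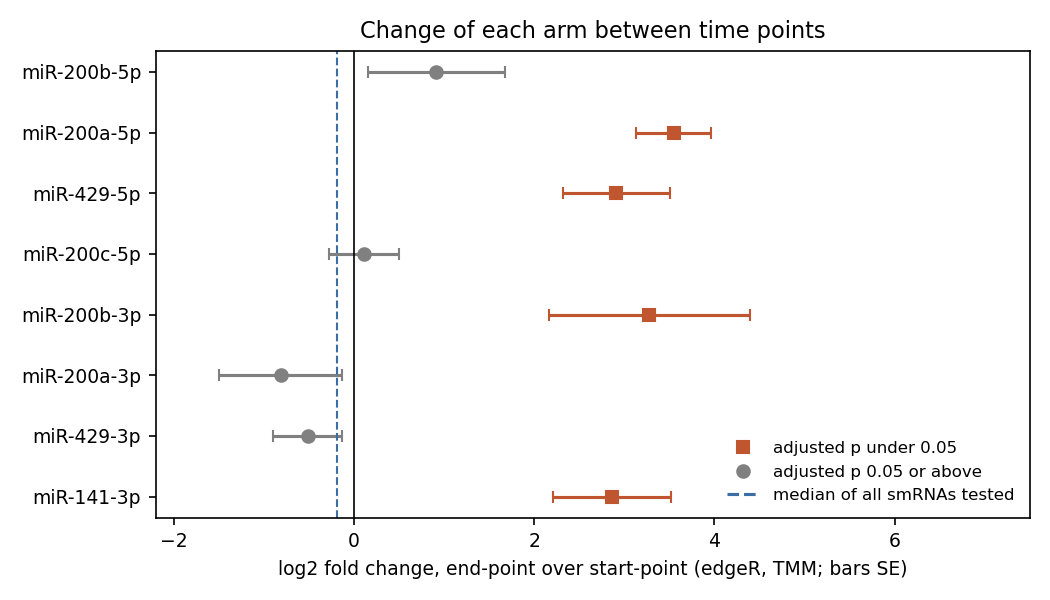
Log2 fold change of each arm, end-point over start-point, from edgeR with TMM factors. Bars are standard errors, filled squares mark an adjusted p under 0.05 and the dashed line is the median of all smRNAs tested, -0.18. miR-200a-5p and miR-429-5p stand at 3.55 and 2.91 while miR-200a-3p and miR-429-3p stand at -0.82 and -0.51.

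Among 3p arms, the ones that target ZEB1 and ZEB2, miR-200b-3p was the most abundant by mean. At the start-point it ran from 260 to 8845 CPM with a median of 1063, and at the end-point from 30.9 to 35672 CPM with a median of 595. The median thus was lower at the end-point while the fitted log2 fold change was 3.28 ± 1.11 (SE; edgeR adjusted p 0.0260). End-point libraries 2 and 4, at 35672 and 14434 CPM, lay above every start-point library, and end-point libraries 3 and 6, at 30.9 and 126 CPM, lay below every one. Without end-point library 2 the log2 fold change was 1.38 (edgeR adjusted p 0.291), and mouse as a block gave 0.55 with 0.835. That block without the second end-point library of mouse 1, the same end-point library 2, turned its direction, to -0.61 (edgeR adjusted p 0.705). limma-voom gave 0.39 with an adjusted p of 0.838. The call also failed with library totals only (edgeR adjusted p 0.0663), in males only (0.0702) and without start-point libraries 1, 6 and 7 (0.104). Of 6 mice, 3 had more and 3 had less at the end.

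miR-141-3p, which shares its seed with miR-200a-3p, ran from 67.4 to 344 CPM with a median of 131 at the start-point and from 72.8 to 2904 CPM with a median of 248 at the end-point. End-point libraries 2, 4 and 5 lay above the start-point range, at 698, 830 and 2904 CPM, and the other 4 lay within it. The log2 fold change was 2.86 ± 0.65 (SE; edgeR adjusted p 0.00187). With mouse as a block it was 1.78 (edgeR adjusted p 0.177), and with limma-voom 1.85 with 0.0595. Leaving out any single library kept its edgeR adjusted p at 0.0128 or lower.

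The 3p arms of the hairpins whose 5p arms rose gave lower values at the end-point but did not pass the test. miR-200a-3p went from a median of 498 CPM (166 to 2167) to 291 CPM (0 to 619), and its log2 fold change was -0.82 ± 0.68 (SE; edgeR adjusted p 0.369). Its 0 was in end-point library 1, where up to 54.8 CPM would give no count. miR-429-3p went from a median of 528 CPM (227 to 894) to 201 CPM (132 to 355), and 5 of 7 end-point libraries lay below all start-point libraries. Its log2 fold change was -0.51 ± 0.38 (SE; edgeR adjusted p 0.309). With library totals only it was -1.20 (edgeR adjusted p 0.0293), and without the libraries under 75000 counts 0.07 with 0.898, so the call and the direction of miR-429-3p followed the scaling and the libraries used. Both 3p arms were lower at the end in 5 of 6 mice. None of the 8 arms was lower without overlap, which 5.12% of smRNAs were.

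The balance of the arms needs no scaling between libraries, because both arms are counted in the same library. Over all hairpins with both arms measured and enough counts, 432 in number, limma called 23.8% changed in log2 of 3p over 5p between time points, 12.3% with less 3p and 11.6% with more 3p at the end-point. In the family 3 hairpins could be tested, those of the chromosome 4 cluster, and 2 were called, both with less 3p at the end-point. The median shift over all hairpins was 0.01. The time points did not overlap in this ratio for 1.39% of hairpins with less and 2.08% with more 3p at the end-point, and overlapped for all 3 of the family.

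In miR-200a the major arm by median share switched, and the start-point lead of 3p was clear in males only. The 3p arm held 28.8 to 95.2% of the hairpin's counts at the start-point, with a median of 72.2%, and was the more abundant arm in 8 of 10 libraries. The 7 male libraries held 58.8 to 95.2%. Female start-point library 8 was near even at 51.0%, and 5p already led in female libraries 9 and 10, at 44.7 and 28.8% 3p. At the end-point the 3p arm held 0 to 34.7%, with a median of 20.3%, and 5p was the more abundant arm in all 7 libraries. The time points overlapped in few libraries, since only start-point library 10, at 28.8%, lay inside the end-point range. The log2 ratio of 3p over 5p went from 1.54 ± 1.87 (SD, n = 10) to -2.68 ± 2.26 (SD, n = 7), a shift of -4.22 ± 0.94 (SE) with a limma adjusted p of 0.00277. It was called in all 7 alternatives other than leaving out single libraries, mouse as a block among them. Shifts there ran from -5.20 to -3.45, with limma adjusted p from 0.00149 to 0.0183. Leaving out single libraries gave shifts from -4.53 to -3.39, with limma adjusted p from 0.00193 to 0.00569. Without the libraries under 75000 counts the end-point log2 ratio was -1.91 ± 0.81 (SD, n = 4). In each of the 6 mice the 3p share was lower in every end-point library than in the start-point library. Any pairing would give this, since the lowest start-point share of these mice was 44.7% and the highest end-point share 34.7%.

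The counts behind these shares were moderate. End-point library 1 had 0 3p counts of 98, a 3p share of 0% (95% Wilson interval 0 to 3.77%). End-point library 6, with 606 counts, gave 11.9% (95% Wilson interval 9.54 to 14.7%). Start-point library 3, with 350 counts, gave 91.7% (88.4 to 94.2%). These intervals cover counting error only.

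miR-429 shifted in the same direction. Its 3p share ran from 41.5 to 78.4% with a median of 61.8% at the start-point and from 7.14 to 63.6% with a median of 19.3% at the end-point. End-point libraries 1, 2, 4, 5 and 6 lay at 26.2, 8.02, 10.8, 19.3 and 7.14%, below every start-point library. The shallow libraries 3 and 7, at 63.6 and 55.0%, overlapped the start-point range, on 11 and 20 counts. The shift in log2 ratio was -2.45 ± 0.69 (SE) with a limma adjusted p of 0.0126. It was larger, -3.70 (limma adjusted p 0.000239), once the 3 shallow libraries were removed. It missed the threshold with mouse as a block, at -2.40 with a limma adjusted p of 0.0884, and in males only, at -2.61 with 0.0641. The 3p share of miR-429 was lower at the end in all 6 mice.

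In miR-200b, 3p stayed the more abundant arm. It held 55.4 to 100% of counts at the start-point and 88.6 to 100% in 6 of 7 end-point libraries. The exception was end-point library 3, with 1 count of 3p and 14 of 5p. The shift was -0.03 ± 1.42 (SE) with a limma adjusted p of 0.995, and so wide an error leaves changes of several-fold in either direction undetectable at this depth. Thus of 3 hairpins cut from one stretch of chromosome 4, those of miR-200a and miR-429 shifted to 5p and that of miR-200b did not pass the test. Whether the shifts differ between hairpins was not tested.

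**Figure D3:**
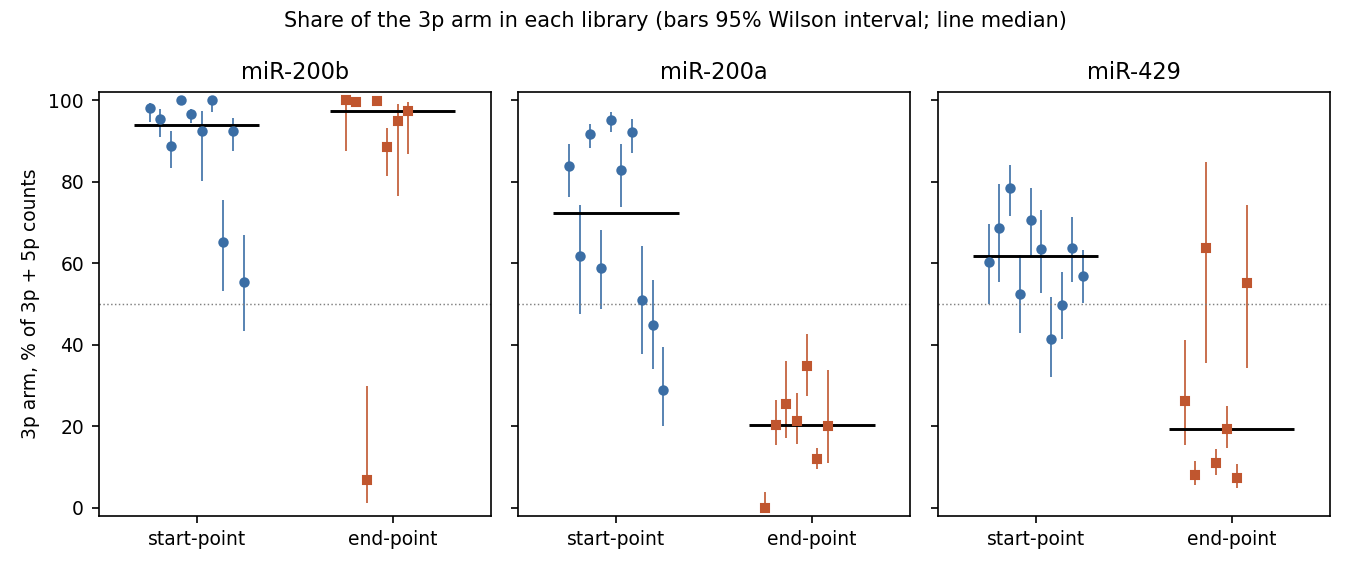
Percent of each hairpin's counts that are 3p, by time point. Points are libraries, bars their 95% Wilson intervals and lines medians. The median fell from 72.2 to 20.3% in miR-200a and from 61.8 to 19.3% in miR-429, and stood at 94.0 and 97.4% in miR-200b.

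**Figure D4:**
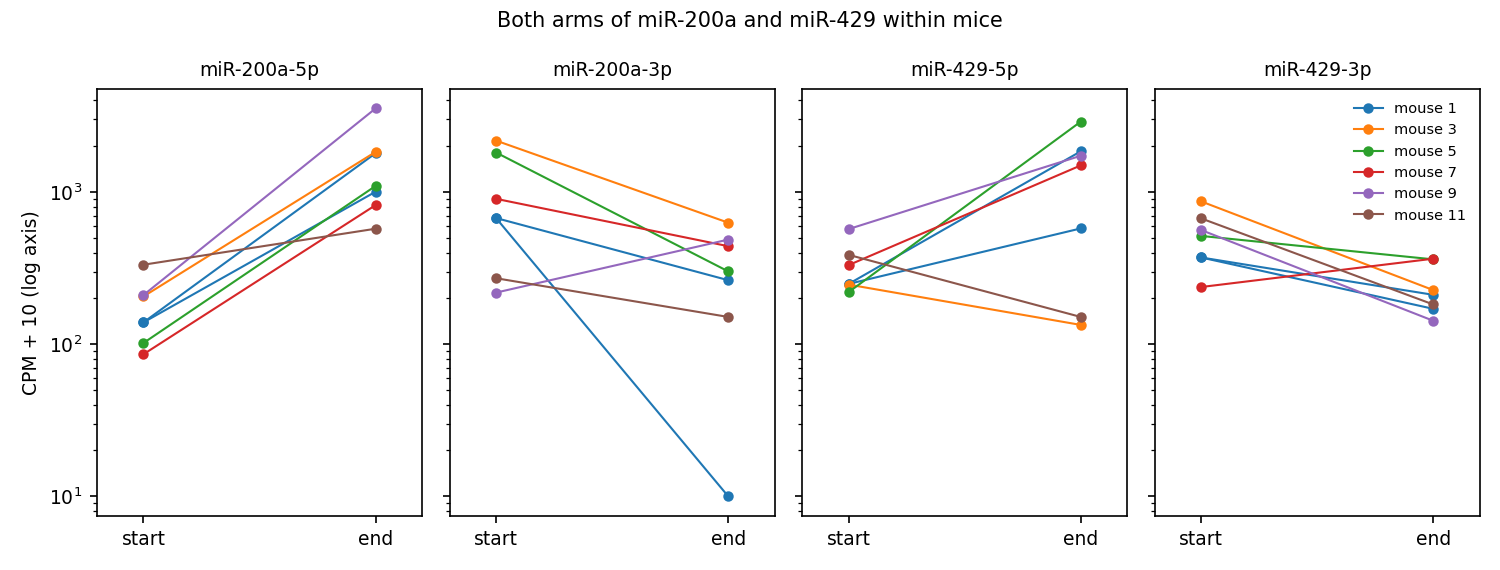
CPM plus 10 on a log axis at the start-point and end-point of each of the 6 mice, for both arms of miR-200a and miR-429. Mouse 1 has 2 end-point libraries. Every line for miR-200a-5p rises, as its time points do not overlap, while miR-429-5p falls in mice 3 and 11.

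The order of the arms by median CPM changed with these shifts. At the start-point it was miR-200b-3p, miR-429-3p, miR-200a-3p, miR-429-5p, miR-200a-5p, miR-141-3p, miR-200c-5p and miR-200b-5p, from 1063 to 89.1 CPM. At the end-point miR-429-5p and miR-200a-5p led, at places 59 and 86 of the 1487 smRNAs, up from 501 and 733. Neighbours in either order had overlapping ranges over libraries. Within libraries, the start-point order held best for miR-429-5p over miR-200a-5p, in 9 of 10, and for miR-200c-5p over miR-200b-5p, in 8 of 10, and the other start-point pairs kept their order in 4 to 7. At the end-point miR-429-3p exceeded miR-200c-5p in 6 of 7 libraries, and the other pairs kept their order in 2 to 5. The reference sequences of these arms are 21 or 22 bases long. The counts do not give the lengths of the reads, and the part of length in these levels was not tested.

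Together the 8 arms held 0.253 to 1.01% of counts at the start-point (median 0.307%) and 0.200 to 3.98% at the end-point (median 0.618%). The highest share was in end-point library 2, at 3.98% (95% Wilson interval 3.89 to 4.08%), where miR-200b-3p made up 89.5% of the family. Without miR-200b-3p the family's share was 0.226 ± 0.0847% (SD, n = 10) and 0.427 ± 0.178% (SD, n = 7). The most abundant member was miR-200b-3p in 5 of 10 start-point and 3 of 7 end-point libraries. miR-200a-5p led in 3 end-point libraries and in none at the start-point.

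**Figure D5:**
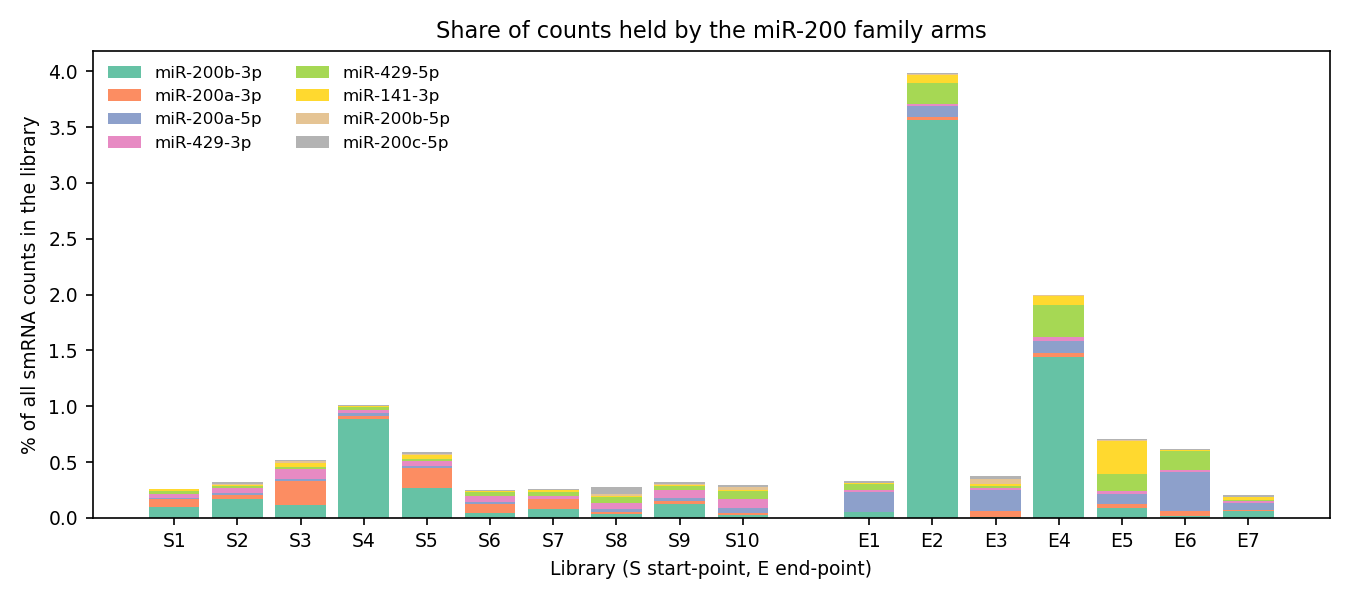
Percent of all smRNA counts held by each of the 8 arms in every library, stacked. End-point libraries 2 and 4 reach 3.98 and 2.00%, with miR-200b-3p as 89.5 and 72.3% of the family there, and miR-200a-5p is the largest part in end-point libraries 1, 3 and 6.

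The genomic clusters were compared by their 3p arms, miR-200b, miR-200a and miR-429 on chromosome 4 against miR-141 on chromosome 6. The chromosome 4 arms were the more abundant in all 10 start-point libraries, by 17.1-fold as a geometric mean, and in 6 of 7 end-point libraries, by 6.33-fold. The exception was end-point library 5, with 1637 CPM from chromosome 4 and 2904 CPM of miR-141-3p. The log2 balance was 4.10 ± 1.18 (SD, n = 10) and 2.66 ± 2.05 (SD, n = 7), and the difference of -1.43 is given as a description, with no test. With all measured arms summed, 6 on chromosome 4 against miR-141-3p and miR-200c-5p on chromosome 6, the difference was -0.00385. Neither chromosome 6 hairpin had both arms measured, so that value also reflects the addition of miR-200c-5p. miR-200c-3p does not enter the chromosome 6 side.

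The seed groups showed no common movement. The AAUACUG arms miR-200b-3p and miR-429-3p summed to more than the AACACUG arms miR-200a-3p and miR-141-3p in 7 of 10 start-point and 4 of 7 end-point libraries. The log2 balance was 1.35 ± 1.52 (SD, n = 10) and 1.19 ± 2.75 (SD, n = 7), a difference far smaller than the spread between libraries. Each seed group had 1 arm called higher, miR-200b-3p and miR-141-3p, while miR-429-3p and miR-200a-3p were not called. End-point library 2 leaned most to AAUACUG, at 35833 against 951 CPM, and end-point library 3 most to AACACUG, at 866 against 248 CPM.

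Female and male libraries were compared with time point as a covariate. Sex differs between mice only, and the libraries share animals (17 libraries of 10 mice, 3 of them from mouse 1), which this test does not take into account. Of 1401 smRNAs edgeR called 0 (0%), although 136 had an unadjusted p under 0.05. It called 0 of the 8 arms, and 2 had an unadjusted p under 0.05. These were miR-200b-3p and miR-141-3p, lower in females with log2 fold changes of -3.68 ± 1.35 (SE) and -2.21 ± 0.70 (SE), and edgeR adjusted p was 0.399 for each. DESeq2 gave another answer, calling 35 smRNAs with these arms among them, each at an adjusted p of 0.0242. At the end-point the 2 female libraries held 126 and 595 CPM of miR-200b-3p and the 5 male libraries 30.9 to 35672 CPM.

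The smRNA outside the family that varied most like each arm was found by Spearman's rho of log2 CPM over the 17 libraries, among 1387 smRNAs with a mean of at least 50 CPM. These values include the difference between time points and share the libraries' depth. miR-200a-5p was most like miR-6915-3p (rho 0.855), and miR-429-5p like miR-7658-3p (0.875). miR-200a-3p was most like miR-27a-3p (0.858), miR-429-3p like miR-26b-5p (0.773) and miR-141-3p like miR-16-5p (0.784). For miR-200b-3p the 3 most alike were mmu_piR_038323 at chr13:44880547-44880577 (0.807), miR-669m-3p (0.806) and mmu_piR_007729 at chr9:123310826-123310855 (0.752). Both are piRNA entries, each 1 of 3 of its name, with coordinates as the table gives them. miR-200b-5p was most like miR-708-5p (0.812) and miR-200c-5p like miR-875-3p (0.801). Between the arms of one hairpin, pairs that were not searched for, rho was -0.287 for miR-200a, 0.225 for miR-429 and 0.049 for miR-200b.

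Other miRNAs of epithelium changed in both directions. Of 12 listed, 10 were measured and 9 tested, and edgeR called 1 higher and 4 lower, where 17.4% and 16.3% of all smRNAs were called. miR-192-5p and miR-194-5p, abundant in enterocytes, fell by 2.77 and 2.31 on the log2 scale, with edgeR adjusted p of 0.00181 and 0.0124. miR-375-3p, a miRNA of enteroendocrine cells, and miR-31-5p were called lower as well (edgeR adjusted p 0.0213 and 0.0141), whereas miR-215-5p rose by 3.51 on the log2 scale. miR-203-3p, miR-205-5p, miR-21a-5p and miR-182-5p were not called, at log2 fold changes from -0.71 to -0.30. Over the 9 tested the median log2 fold change was -0.71 against -0.18 for all smRNAs. The summed level of the 10 went from a median of 9435 CPM (4216 to 18548) to 3063 CPM (1934 to 15544).

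Markers of other cell types were measured beside these. Of 8 leukocyte miRNAs, 6 were measured, 5 tested, 1 called higher and 1 lower, against 33.7% called over all smRNAs, and their sum was 1101 to 4174 CPM at the start-point and 702 to 3414 CPM at the end-point. Among the defining ones, miR-142a-3p was at 0 in 3 libraries, and miR-223-3p rose by 2.38 on the log2 scale (edgeR adjusted p 0.00187). miR-342-3p fell by 1.60 (edgeR adjusted p 0.00663), while miR-150-5p and miR-181a-5p, at 0.11 and 0.06, were not called. Of 9 stromal and smooth muscle miRNAs, 6 were measured, 5 tested, 2 called higher and 1 lower, against the same 33.7%, with a median log2 fold change of -0.16. Their sum was 490 to 2330 CPM at the start-point and 1155 to 12637 CPM at the end-point. Those that rose were miR-143-3p (log2 fold change 2.87, edgeR adjusted p 0.000585) and miR-145a-3p (5.90, 8.08e-07). miR-133a-3p fell by 1.94 (edgeR adjusted p 0.0446), and miR-145a-5p and miR-214-3p, at -0.26 and -0.16, were not called. Of 3 red cell miRNAs, 2 were measured and 1 tested, with no call. miR-451a, not tested, was at 0 in 11 libraries. Its median was 0 CPM (0 to 38.4) at the start-point and 67.5 CPM (0 to 338) at the end-point. The part of these cell types in the changes of the family was not tested.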

How the data were processed

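Small RNAs were sequenced from fecal exosomes with the QIAseq miRNA kit, which carries unique molecular identifiers, per the labels' protocols. Values are deposited as raw, unnormalized read counts, 1 column for each library. The submitters' processing notes name bcl2fastq and GRCm38; the aligner, the counter and the use of the identifiers are not given in the sources used here, and without it PCR copies add to the spread. All 17 columns matched a sample title. The closest pair of libraries had a chi-square per degree of freedom of 8.93, so none was taken as a repeat.

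edgeR 4.0.16 (glmQLFit with legacy = FALSE, glmQLFTest, TMM, filterByExpr, Benjamini-Hochberg) was run in R 4.3.3 on 1270 smRNAs for time point and on 1401 for sex, adjusting for time point, and a call is an adjusted p under 0.05. limma 3.58.1 (eBayes with trend) tested log2 of (3p + 0.5) over (5p + 0.5) for hairpins with a summed count of at least 10 in at least 7 libraries. DESeq2 1.42.0, limma-voom, other factors and filters, blocks on mouse and left-out libraries were alternatives. The tests were tried on simulated counts. P-values measure the spread between libraries, and outside the fits with a block they treat libraries of the same mouse as independent.

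The mouse labels pair libraries. Deviations from the group means correlated with r from -0.077 to 0.252 in 7 pairs (mean 0.0801). The members, lists and tests were chosen with earlier results of these data known. All family arms measured are named, with the most alike smRNA of each by rho and list members.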

Additional observations from a re-analysis of the deposited data

Results flagged for a closer look

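In 9 of 28 groups of values, 1 library stood far from the others of its time point by Dixon's test. Chance does this in about 1 of 20 groups where values are normal and groups are separate. CPM values are skewed and several groups share counts, so that rate is no yardstick for these flags. For miR-200b-3p the flagged libraries were start-point library 4, at 8845 CPM with the next at 2699, and end-point library 2, at 35672 CPM with the next at 14434. Start-point library 4 also stood apart in the family's share of counts, 1.01%, and in the cluster balance, 7.07 on the log2 scale. For miR-141-3p it was end-point library 5, at 2904 CPM with the next at 830. miR-200a-5p was at 3535 CPM in end-point library 6 with the next at 1825, so that the library farthest out lies in the direction of the rise. miR-200c-5p was at 552 CPM in start-point library 8 and miR-200b-5p at 433 CPM in end-point library 3, the latter on 14 counts. The log2 ratio of miR-200a 3p over 5p was -7.62 in end-point library 1, which had no 3p count, with the next at -2.88.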

How the results depend on the processing

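The call of miR-200a-5p and its direction held in all 14 alternatives other than leaving out single libraries (log2 fold change 2.91 to 4.14) and in each of those (3.15 to 3.88). With mouse as a replicate block, edgeR called 104 smRNAs and 1 of the arms. That block without the second end-point library of mouse 1 gave 85 and 1, and reversed miR-200b-3p to -0.61, miR-200b-5p to -0.48 and miR-200c-5p to -0.0084. The legacy edgeR dispersion called 402 smRNAs and 4 arms. limma-voom and its random block each called 1 of the arms. Males only gave 211 smRNAs, and 37 hairpins with 1 of the family, and the block 45 hairpins with 1. For sex, library totals only called 1 smRNA and DESeq2 35, with 2 of the arms. Single libraries left out gave 365 to 463 smRNAs, 3 to 4 arms, 90 to 118 hairpins and 0 to 1 smRNA for sex. They gave differences of -1.94 to -0.85 in cluster balance, -0.84 to 0.32 in seed balance, whose direction is thus not settled, and 0.294 to 0.925 percentage points in family share, against 0.763 with all libraries. The lowest share difference was without end-point library 2. With all measured arms summed, which on chromosome 6 only adds miR-200c-5p to miR-141-3p, the cluster difference went from -1.43 to -0.00385.

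Other reversals were all of values that were not called, and their cause was not tested. miR-200c-5p went to -0.44 with library totals only and -0.15 without start-point libraries 1, 6 and 7 (an alternative chosen after seeing the data, as was the legacy dispersion), and from -0.0911 to 0.525 over single libraries. miR-429-3p went to 0.0697 without the libraries under 75000 counts. The miR-200b arm shift went to 1.44 and 0.52 under these same removals, shallow libraries first, and from -0.73 to 1.24 over single libraries. For sex, library totals only gave 0.47 for miR-200b-5p, 0.13 for miR-429-3p and 0.50 for miR-429-5p, and without the shallow libraries miR-200b-5p was 0.25. Over single libraries, sex values ran from -0.20 to 0.71 for miR-200a-5p, -0.52 to 0.37 for miR-200b-5p and -0.41 to 0.18 for miR-429-5p. Depth limits miR-200b-5p most, at 0 to 29 counts.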

Other observations

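At the start-point, the 3p share of miR-200a was lower in the 3 female libraries, at 28.8, 44.7 and 51.0%, than in the 7 male libraries, at 58.8 to 95.2%, a split noticed after the values were seen and not tested. At the end-point the 2 female libraries, at 11.9 and 20.0%, lay within the male range of 0 to 34.7%. Start-point libraries 1, 6 and 7, which resembled each other most, held the lowest miR-200c-5p of that time point, 38.7 to 85.9 CPM against 101 to 552 CPM in the other 7, and miR-200b-5p at 0 to 32.2 CPM against 5.62 to 209 CPM.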
